A study of Vitis vinifera with 36 samples.

Results

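The alpha-expansins described here are 7 grape loci of the 28119 loci with a count in any library. They are EXPA1 (VIT_201s0026g02620), EXPA2 (VIT_204s0079g00420), EXPA11 (VIT_208s0007g00440), EXPA14 (VIT_213s0067g02930), EXPA16 (VIT_214s0108g01020), EXPA18 (VIT_217s0053g00990) and EXPA19 (VIT_218s0001g01130). They were chosen by locus identifier, as members of the expansin A family with a place in berry softening and growth. The choice used no measured value as a criterion, but it was made with earlier results of these data known. All 7 had reads in all 36 libraries and all 7 entered the tests. The deposited tables give identifiers without names, so the EXPA names rest on the identifier list and were not checked against an annotation.

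RNA was sequenced from deseeded berries of Vitis vinifera, with skin and flesh together, taken from vines 7 years old on an unspecified rootstock under a rain shelter in southern China. The vines bore a winter crop and a summer crop within a year, each started by pruning and forcing with hydrogen cyanamide, which was placed only at the terminal bud and near the pruning wound for the winter crop, with leaves also removed by hand. Winter and summer berries of the cultivars Muscat Superior and Victoria were sampled at 3 points of the Eichhorn-Lorenz scale: E-L 35, the onset of ripening (veraison), E-L 36, when sugar is intermediate, and E-L 38, when berries are ripe for harvest. This gave 12 groups of 3 biological replicates, each made from RNA of 50 pooled berries. Crop cannot be told apart from season, from the date of sampling or from a processing batch, and the tissue label was not checked against marker genes.

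Expansins are proteins of the plant cell wall that loosen it without cutting its polymers, by weakening the contacts between cellulose and hemicellulose in acidic walls. They let cells enlarge under turgor, and in fruits such as tomato an alpha-expansin expressed during ripening takes part in softening. A grape berry softens at veraison and then enlarges again as it gains sugar and water, so that wall loosening serves both processes. Which of these loci acts in which process of the berry was not measured here.

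Libraries held 5624449 to 18606068 expected counts (median 10599908), and 3 reads corresponded to 0.161 to 0.533 CPM (counts scaled to the library total). In 8 of the 36 pairs of replicates, all of them in the winter crop, the counts differed little more than sampling noise, with a chi-square per degree of freedom of 1.45 to 1.89, against 2.42 to 53.4 in the other pairs. They were the 3 pairs of winter Muscat Superior at E-L 35, the 3 pairs of winter Victoria at E-L 36, winter Muscat Superior at E-L 36 (replicates 1 and 2) and winter Victoria at E-L 38 (replicates 2 and 3). Another 3 libraries, all of the summer crop, correlated better with a library of another stage than with their own group: Muscat Superior at E-L 36 replicate 1, Victoria at E-L 36 replicate 1 and Victoria at E-L 38 replicate 1. Crop differences, and called ripening changes, that use these 3 summer libraries are also given without them, and the calls lost when near-identical libraries were summed are named.

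EXPA19 and EXPA14 supplied most of the transcript of these loci on the per-length FPKM scale (fragments per kilobase of transcript, scaled to library size). Group means of EXPA19 ran from 764 ± 69.8 FPKM in summer Muscat Superior at E-L 38 to 2029 ± 319 FPKM in winter Muscat Superior at E-L 36 (SD, n = 3 each). EXPA14 ran from 222 ± 37.2 FPKM in summer Muscat Superior at E-L 38 to 1654 ± 168 FPKM in summer Muscat Superior at E-L 35 (SD, n = 3 each). In each group EXPA19 stood between rank 26 and rank 68 of all loci by mean FPKM, and EXPA14 between rank 31 and rank 313. Both together held 81.7% to 94.4% of the summed FPKM of the 7 loci in a library, with a median of 89.8%.

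The other 5 loci were lower. EXPA19 had the narrowest span, with a highest group mean 2.65 times its lowest, followed by EXPA1 with 4.64 times and EXPA14 with 7.46 times. The spans of EXPA2, EXPA16 and EXPA18 were 17.8, 22.8 and 53.7 times, and EXPA11 spanned 150 times, from 0.4 ± 0.0693 FPKM in winter Victoria at E-L 36 to 60 ± 12.4 FPKM in winter Muscat Superior at E-L 36 (SD, n = 3 each). The levels of EXPA1 and EXPA18 are less certain than the others, because their expected counts were whole numbers, within 0.005, in 2 of 36 libraries each, so that part of their reads had been divided with other loci. The same count was 36 of 36 libraries for EXPA14 and EXPA19, 32 for EXPA11 and EXPA16, and 28 for EXPA2.

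**Figure D1:**
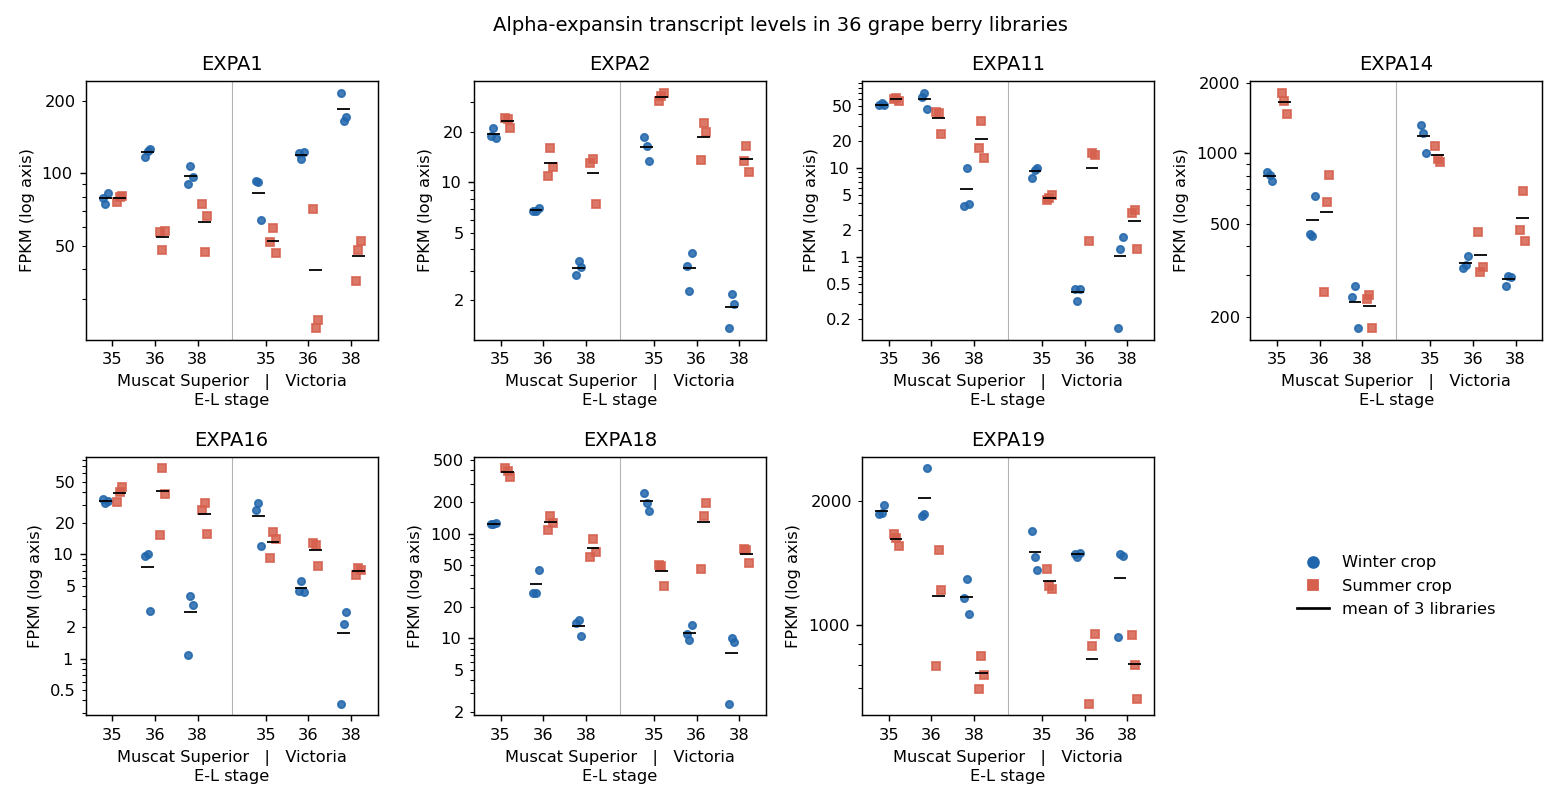
FPKM of each alpha-expansin (log axis, one panel per locus) in 36 libraries, at E-L 35, 36 and 38 within Muscat Superior (left of each panel) and Victoria (right); blue circles are winter libraries, red squares are summer libraries and black bars are means of 3 libraries. EXPA1 and EXPA19 sit higher in winter libraries at E-L 36 and E-L 38, except that winter replicate 1 of Victoria at E-L 38 lies within the summer range of EXPA19, while EXPA2, EXPA16 and EXPA18 sit lower there.

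The first question of the design is how winter berries differ from summer berries at the same stage. After the onset of ripening, EXPA1 and EXPA19 rose in winter berries of both cultivars, while EXPA2, EXPA16 and EXPA18 fell. At E-L 35, EXPA18 was called in opposite directions in the cultivars. In Muscat Superior, 0 loci were higher and 2 lower in winter berries at E-L 35, where 9.33% and 8.25% of all 19736 tested genes were called. At E-L 36, 2 were higher and 3 lower, beside 21% and 21.6% of all genes, and at E-L 38, 2 were higher and 4 lower, beside 22.7% and 22.4%. In Victoria, 2 were higher and 1 lower at E-L 35, beside 21.8% and 20.3% of all genes.

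In Victoria at E-L 36, 2 were higher and 4 lower, beside 24.9% and 25.9% of all genes, and at E-L 38 again 2 were higher and 4 lower, beside 26.5% and 27.8%. A call means a Benjamini-Hochberg adjusted p below 0.05 in edgeR's quasi-likelihood test over all genes. At E-L 36 and E-L 38, 5 to 6 of the 7 loci were called, where 42.6% to 54.3% of all genes were, so that a call by itself does not set an expansin apart. The median log2 fold change of the 7 loci at E-L 38 was -1.76 in Muscat Superior and -1.27 in Victoria, beside 0 and -0.03 over all genes tested. On the FPKM scale the median log2 fold change of all genes moved by -0.16 in Victoria at E-L 35 and by under 0.1 in the other crop comparisons, against the scaling used for the tests. The share of all called genes that were higher in winter, by the test and on the log2(FPKM + 1) scale, was 51.7% and 34.0% in Victoria at E-L 35 and 53.1% and 63.5% in Muscat Superior at E-L 35, and moved by under 10 percentage points elsewhere. Of the crop calls, that of EXPA16 in Victoria at E-L 36 was lost without the 2 doubtful summer Victoria libraries, and with near-identical libraries summed it was lost again, as were those of EXPA14 and EXPA18 in Muscat Superior at E-L 35, EXPA1 in Muscat Superior at E-L 38 and EXPA19 in Victoria at E-L 38. The other crop calls held under both, and EXPA11 in Victoria at E-L 35 gained a call without the 2 doubtful libraries (1.11, with adjusted p from 0.00153 to 0.219 over its alternatives). Neither of those libraries is in that comparison, and the EXPA11 estimate was also 1.11 with them in the fit. In bulk tissue, fewer cells of a type and less RNA per cell cannot be told apart.

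Leaving out the doubtful summer libraries changed the size of several crop differences. With both doubtful Victoria libraries out, the Victoria log2 fold changes at E-L 36 were 2.37 for EXPA1, -2.70 for EXPA2, -5.07 for EXPA11, 0.16 for EXPA14, -0.99 for EXPA16, -3.85 for EXPA18 and 0.76 for EXPA19. At E-L 38 they were 1.84 for EXPA1, -2.94 for EXPA2, -1.07 for EXPA11, -0.96 for EXPA14, -1.99 for EXPA16, -3.05 for EXPA18 and 0.82 for EXPA19. EXPA1 thus had its larger estimate at E-L 36 without these libraries and at E-L 38 with them. For Muscat Superior at E-L 36 without summer replicate 1, the values were 1.14 for EXPA1, -1.13 for EXPA2, 0.74 for EXPA11, -0.50 for EXPA14, -2.91 for EXPA16, -2.09 for EXPA18 and 0.51 for EXPA19. Among the calls of these 3 comparisons, that of EXPA16 in Victoria at E-L 36 was the one lost.

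**Figure D2:**
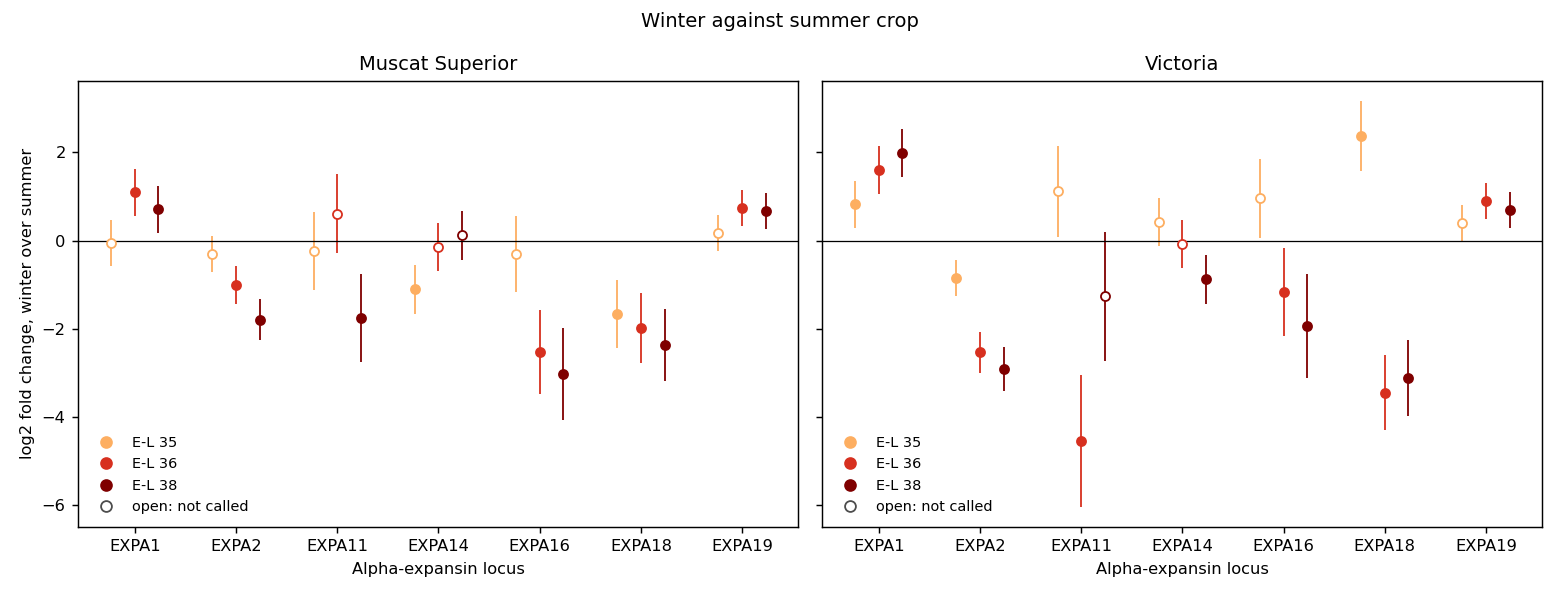
Log2 fold change of winter over summer berries for each alpha-expansin at E-L 35, 36 and 38 in Muscat Superior (left) and Victoria (right); points are edgeR estimates, bars are 95% confidence intervals, filled points have an adjusted p below 0.05 and open points do not. EXPA2, EXPA16 and EXPA18 lie below 0 at E-L 36 and 38 in both panels, EXPA1 and EXPA19 lie above 0, and EXPA18 at E-L 35 lies at -1.67 in Muscat Superior and 2.37 in Victoria.

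EXPA1 rose in winter berries in 5 of 6 comparisons. In Muscat Superior at E-L 36 it had 117, 124 and 126 FPKM in winter berries, against 57.3, 48.1 and 57.7 FPKM in summer berries (log2 fold change 1.09, SE 0.26, edgeR adjusted p = 0.00126). Every winter library lay above every summer library, and the fold was 2.13. Harvest-ripe (E-L 38) Muscat Superior had 90.2, 107 and 96.4 FPKM in winter berries, against 74.3, 47.2 and 66.3 FPKM in summer ones (log2 fold change 0.71, SE 0.26, edgeR adjusted p = 0.0261). These groups did not overlap either, but the call was lost without summer replicate 2 (0.56), without summer replicate 3 (0.74) and without winter replicate 2 (0.66, with adjusted p from 3.71e-05 to 0.128 over its alternatives). At E-L 35 EXPA1 was called in neither direction in Muscat Superior, at 78.8, 74.7 and 82.6 FPKM in winter berries and 75.9, 79.6 and 80.7 FPKM in summer berries (log2 fold change -0.05, SE 0.26, edgeR adjusted p = 0.914).

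In Victoria, EXPA1 was higher in winter berries at each stage. At E-L 35 it had 93.2, 92.2 and 64.2 FPKM in winter berries, against 51.6, 59.4 and 46.7 FPKM in summer berries (log2 fold change 0.82, SE 0.26, edgeR adjusted p = 0.0124). The groups were apart, but without winter replicate 1 the call was lost (0.72, with adjusted p from 7.39e-06 to 0.0513 over its alternatives). At E-L 36 the levels were 121, 114 and 123 FPKM in winter berries and 71.4, 22.9 and 24.7 FPKM in summer berries (log2 fold change 1.59, SE 0.26, edgeR adjusted p = 1.37e-05). The high summer value came from the library in doubt, and without it the log2 fold change was 2.37, with adjusted p from 3.13e-12 to 0.0238 over its alternatives. At E-L 38 the levels were 216, 165 and 172 FPKM in winter berries and 35.7, 48.0 and 52.5 FPKM in summer berries, a 3.97-fold difference with no overlap (log2 fold change 1.99, SE 0.27, edgeR adjusted p = 4.49e-07).

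EXPA19, the most abundant of these transcripts, rose in winter berries in 4 of 6 comparisons, with a smaller estimate than EXPA1 in each. In Muscat Superior at E-L 36 it had 1836, 1854 and 2397 FPKM in winter berries, against 793, 1519.6 and 1214 FPKM in summer berries (log2 fold change 0.73, SE 0.20, edgeR adjusted p = 0.00404). Summer replicate 1, a library in doubt, was the lowest, yet the groups were apart with or without it, and the call was lost only on leaving out winter replicate 3 among single libraries (0.49, with adjusted p from 0.000641 to 0.0769 over its alternatives). Harvest-ripe (E-L 38) Muscat Superior had 1160.1, 1288 and 1059 FPKM in winter berries, against 699, 838 and 756 FPKM in summer ones (log2 fold change 0.67, SE 0.20, edgeR adjusted p = 0.00709). The lowest winter library stood above the highest summer library.

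The direction was the same in Victoria, where at E-L 36 EXPA19 had 1489, 1464 and 1494 FPKM in winter berries, against 643, 885 and 948 FPKM in summer berries (log2 fold change 0.89, SE 0.20, edgeR adjusted p = 0.000506), and the groups were far apart. At E-L 38 it had 933, 1488 and 1471 FPKM in winter Victoria berries, against 944, 799.9 and 661 FPKM in summer ones (log2 fold change 0.69, SE 0.20, edgeR adjusted p = 0.00432). Here winter replicate 1 lay within the summer range, and the call was lost when the near-identical winter replicates 2 and 3 were summed into 1 library (0.57, with adjusted p from 0.000239 to 0.0549 over its alternatives). At E-L 35 EXPA19 had 1856, 1867 and 1958 FPKM in winter Muscat Superior against 1659, 1626 and 1553 FPKM in summer, and 1688, 1457 and 1361 FPKM in winter Victoria against 1367, 1240.2 and 1219 FPKM in summer. It passed in neither cultivar there, with log2 fold changes of 0.18 in Muscat Superior (adjusted p = 0.587, edgeR) and 0.39 in Victoria (adjusted p = 0.114, edgeR). Every winter library was above every summer library in Muscat Superior, while the crops overlapped in Victoria. In a fit to the compared groups only, EXPA19 passed in both cultivars. Over its alternatives the adjusted p ran from 0.0024 to 0.84 in Muscat Superior and from 0.0314 to 0.322 in Victoria.

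EXPA18 was called in all 6 crop comparisons, and at the onset of ripening it was the only locus called in opposite directions in the cultivars. The estimates of EXPA1, EXPA11, EXPA14 and EXPA16 also had opposite signs there, but none of these loci was called in both cultivars. In Muscat Superior at E-L 35 EXPA18 had 123, 125 and 126 FPKM in winter berries, against 418, 395 and 344 FPKM in summer berries (log2 fold change -1.67, SE 0.38, edgeR adjusted p = 0.00257). The 3 winter libraries are near-identical, and with them summed into 1 the call was lost (-1.66, with adjusted p from 6.14e-14 to 0.19 over its alternatives). In Victoria at E-L 35 it had 245, 197 and 165 FPKM in winter berries, against 50.6, 48.8 and 31.9 FPKM in summer berries, a 5.16-fold rise (log2 fold change 2.37, SE 0.39, edgeR adjusted p = 2.25e-05). All winter libraries lay below all summer libraries in Muscat Superior and above them in Victoria.

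At the later stages EXPA18 fell in winter berries of both cultivars. At E-L 36 it had 27.4, 27.2 and 45.1 FPKM in winter Muscat Superior berries, against 109, 148 and 127 FPKM in summer ones (log2 fold change -1.99, SE 0.38, edgeR adjusted p = 0.000152). Victoria berries of that stage had 10.9, 9.63 and 13.3 FPKM in the winter crop, against 46.0, 146 and 197 FPKM in summer berries (log2 fold change -3.45, SE 0.41, edgeR adjusted p = 1.27e-07). The low summer Victoria value came again from the library in doubt, yet it was above each winter value. At E-L 38 the winter level was 5.20 times lower in Muscat Superior, with 14.2, 15.1 and 10.6 FPKM in winter berries and 59.5, 89.7 and 67.5 FPKM in summer berries (log2 fold change -2.38, SE 0.40, edgeR adjusted p = 2.16e-05). Its winter level in Victoria at E-L 38 was 8.72 times lower, with 2.39, 10.0 and 9.14 FPKM in winter berries and 70.8, 69.8 and 52.3 FPKM in summer berries (log2 fold change -3.12, SE 0.42, edgeR adjusted p = 5.4e-07). No winter library reached the summer range in any of these groups.

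EXPA2 fell in winter berries in 5 of 6 comparisons, and the difference widened with ripening in both cultivars. In Muscat Superior it was not called at E-L 35 (log2 fold change -0.30, SE 0.20, edgeR adjusted p = 0.317), with 18.7, 21.0 and 18.4 FPKM in winter berries and 24.2, 23.9 and 21.2 FPKM in summer berries. At E-L 36 it had 6.73, 6.73 and 7.01 FPKM in winter berries, against 10.9, 16.1 and 12.3 FPKM in summer berries (log2 fold change -1.02, SE 0.21, edgeR adjusted p = 0.000276). By E-L 38 it had 2.81, 3.42 and 3.14 FPKM in winter berries, against 13.0, 13.8 and 7.40 FPKM in summer berries (log2 fold change -1.80, SE 0.23, edgeR adjusted p = 2.29e-07). At every stage each winter library was below each summer library, by a narrow margin at E-L 35. There EXPA2 passed only in a fit to the compared groups, with adjusted p from 0.00229 to 0.725 over its alternatives.

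In Victoria, EXPA2 was lower in winter berries from the onset of ripening. At E-L 35 it had 18.6, 16.5 and 13.3 FPKM in winter berries, against 30.3, 32.7 and 34.1 FPKM in summer berries (log2 fold change -0.85, SE 0.20, edgeR adjusted p = 0.00117). At E-L 36 it had 3.19, 2.27 and 3.82 FPKM in winter berries, against 13.6, 22.4 and 19.8 FPKM in summer berries (log2 fold change -2.53, SE 0.23, edgeR adjusted p = 4.93e-10). By E-L 38 it had 1.37, 2.17 and 1.90 FPKM in winter berries, against 13.4, 16.5 and 11.5 FPKM in summer berries, 7.56 times lower (log2 fold change -2.92, SE 0.25, edgeR adjusted p = 8.55e-11). The winter and summer libraries did not overlap at any stage, and these calls held in each of the 14 alternatives run for each comparison.

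EXPA16, a locus of low to moderate level, fell in winter berries at both later stages. In Muscat Superior at E-L 36 it had 9.59, 10.1 and 2.84 FPKM in winter berries, against 15.4, 66.8 and 38.3 FPKM in summer berries (log2 fold change -2.53, SE 0.46, edgeR adjusted p = 7.88e-05). Summer replicate 2 was the highest of all 36 libraries, and without it the log2 fold change was -1.93, with adjusted p from 1.43e-06 to 0.0194 over its alternatives. By E-L 38 it had 1.09, 3.98 and 3.27 FPKM in winter Muscat Superior berries, against 26.9, 31.1 and 15.8 FPKM in summer ones, 8.17 times lower (log2 fold change -3.03, SE 0.51, edgeR adjusted p = 2.09e-05). Winter and summer libraries were apart in both. Victoria berries at E-L 38 had 0.37, 2.15 and 2.78 FPKM in winter berries, against 6.37, 7.46 and 7.08 FPKM in summer berries (log2 fold change -1.94, SE 0.58, edgeR adjusted p = 0.00588), again without overlap.

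The call of EXPA16 in Victoria at E-L 36 was close to the threshold, with 4.49, 5.51 and 4.39 FPKM in winter berries and 13.0, 12.3 and 7.74 FPKM in summer berries (log2 fold change -1.17, SE 0.49, edgeR adjusted p = 0.047). It was lost on leaving out summer replicate 1 (-0.99), summer replicate 2 (-1.13), winter replicate 1 (-1.13), winter replicate 2 (-1.28) or winter replicate 3 (-1.11, with adjusted p from 0.00626 to 0.26 over its alternatives). At E-L 35 EXPA16 had 33.8, 31.5 and 32.2 FPKM in winter Muscat Superior against 31.6, 39.6 and 44.6 FPKM in summer, and 26.6, 31.4 and 11.96 FPKM in winter Victoria against 9.25, 16.3 and 14.1 FPKM in summer. These groups overlapped and EXPA16 did not pass in either cultivar, with log2 fold changes of -0.30 in Muscat Superior and 0.96 in Victoria (adjusted p = 0.683 and 0.0817, edgeR). Without winter replicate 3 of Victoria at E-L 35 it passed, at 1.27, with adjusted p from 0.0329 to 0.3 over its alternatives.

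EXPA11 showed its widest crop difference in Victoria at E-L 36. It had 0.44, 0.32 and 0.44 FPKM in winter berries, from 8, 5 and 7 reads, against 1.51, 14.7 and 14.1 FPKM in summer berries (log2 fold change -4.54, SE 0.73, edgeR adjusted p = 9.29e-06). Summer replicate 1, the library in doubt, was again the one nearest to the winter libraries, though still above them. Because the winter level rests on so few reads, the size of this fold is poorly known, and on the log2(FPKM + 1) scale it was -2.59. In Muscat Superior EXPA11 was lower in winter berries at E-L 38, with 3.72, 9.90 and 3.93 FPKM in winter berries and 16.8, 33.5 and 13.1 FPKM in summer berries (log2 fold change -1.76, SE 0.48, edgeR adjusted p = 0.00411). These groups were apart, but the call was lost without summer replicate 2 (-1.22), and without winter replicate 2 the value was -2.38, with adjusted p from 0.000228 to 0.0564 over its alternatives.

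In the other 4 crop comparisons EXPA11 was not called. In Muscat Superior it had 51.1, 53.8 and 50.5 FPKM in winter berries at E-L 35 and 60.1, 61.3 and 56.5 FPKM in summer berries (log2 fold change -0.24, SE 0.43, edgeR adjusted p = 0.754). At E-L 36 it had 63.7, 70.1 and 46.1 FPKM in winter berries and 43.2, 42.1 and 24.3 FPKM in summer berries (log2 fold change 0.61, SE 0.44, edgeR adjusted p = 0.276). The libraries of the crops did not overlap in either, winter being below summer at E-L 35 and above it at E-L 36. In Victoria at E-L 35 it had 7.82, 9.57 and 10.1 FPKM in winter berries and 4.43, 4.63 and 4.92 FPKM in summer berries. Although these Victoria groups did not overlap, the adjusted p was 0.0754 (edgeR, log2 fold change 1.11). Harvest-ripe (E-L 38) Victoria had 0.16, 1.24 and 1.66 FPKM in winter berries and 3.10, 3.34 and 1.22 FPKM in summer berries (log2 fold change -1.27, SE 0.71, edgeR adjusted p = 0.136), with overlap.

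EXPA14, the other abundant locus, was called lower in winter berries in 2 of 6 comparisons. In Muscat Superior at E-L 35 it had 832, 804 and 760.0 FPKM in winter berries, against 1811, 1674 and 1476 FPKM in summer berries (log2 fold change -1.10, SE 0.27, edgeR adjusted p = 0.00527). No winter library came near the summer range, but the winter libraries are near-identical and the call was lost when they were summed (-1.09, with adjusted p from 4.33e-10 to 0.228 over its alternatives). Victoria berries at E-L 38 had 271, 299.7 and 296 FPKM in winter berries, against 469, 690.2 and 423 FPKM in summer berries (log2 fold change -0.88, SE 0.27, edgeR adjusted p = 0.00744). The highest summer library carried much of this, and the call was lost without that replicate 2 (-0.64, with adjusted p from 0.00288 to 0.0676 over its alternatives).

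At E-L 36, EXPA14 had 451, 444 and 659 FPKM in winter Muscat Superior berries and 254, 616 and 803 FPKM in summer ones (log2 fold change -0.15, SE 0.27, edgeR adjusted p = 0.686), with a sign that turned on the FPKM scale. For Victoria at E-L 36 it had 322, 333 and 362 FPKM in winter berries and 460.0, 311 and 325 FPKM in summer berries (log2 fold change -0.07, SE 0.27, edgeR adjusted p = 0.838), and here the sign turned without summer replicate 1. At E-L 38 in Muscat Superior it had 244, 271 and 179 FPKM in winter berries and 238, 248 and 179 FPKM in summer berries (log2 fold change 0.12, SE 0.27, edgeR adjusted p = 0.751). For Victoria at E-L 35 it had 1319, 1221 and 999.8 FPKM in winter berries and 1078, 939 and 915 FPKM in summer berries (log2 fold change 0.43, SE 0.27, edgeR adjusted p = 0.207). Winter and summer libraries of EXPA14 overlapped in these 4 comparisons.

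The second question is how the loci change as the berry ripens. Between E-L 35 and E-L 38, EXPA2 fell in every cultivar and crop, and the falls of EXPA16 were called only in winter berries. In winter Muscat Superior, 0 loci were higher and 6 lower at E-L 38, where 22.6% and 23.6% of all genes were called in those directions. In summer Muscat Superior, 0 were higher and 5 lower, beside 16.4% and 17.7% of all genes. In winter Victoria, 1 was higher and 5 lower, beside 24.7% and 26.9% of all genes. In summer Victoria, 0 were higher and 1 lower, beside 20.8% and 22.1% of all genes. The median log2 fold change of the 7 loci was -2.52, -1.08, -2.99 and -0.61 in winter Muscat Superior, summer Muscat Superior, winter Victoria and summer Victoria, beside 0.01, 0, -0.03 and -0.04 over all genes. The FPKM scale moved the median of all genes by -0.11 in winter Muscat Superior and -0.27 in summer Victoria, against the scaling used for the tests. The share of called genes that were higher at E-L 38, by the test and on the log2(FPKM + 1) scale, was 48.9% and 38.1% in winter Muscat Superior. In summer Victoria it was 48.5% and 23.5%.

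**Figure D3:**
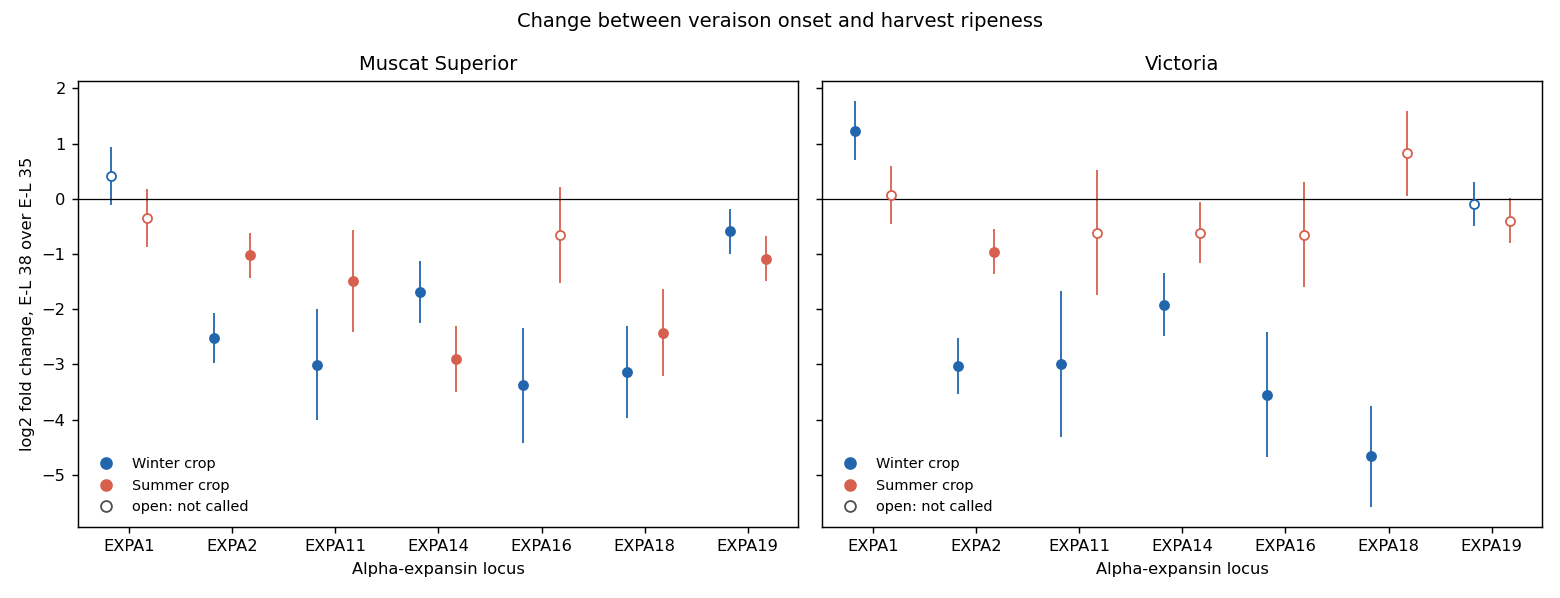
Log2 fold change of each alpha-expansin at E-L 38 over E-L 35 in winter and summer berries of each cultivar; points are edgeR estimates, bars are 95% confidence intervals, filled points have an adjusted p below 0.05 and open points do not. In winter Victoria EXPA18 lies at -4.67 and EXPA1 at 1.24, while in summer Victoria only EXPA2, at -0.96, is filled.

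The largest estimated decline was that of EXPA18 in winter Victoria. There it averaged 203 ± 40.1 FPKM at E-L 35, 11.3 ± 1.89 FPKM at E-L 36 and 7.19 ± 4.18 FPKM at E-L 38 (SD, n = 3 each), and E-L 38 was 25.4 times below E-L 35 (log2 fold change -4.67, SE 0.44, edgeR adjusted p = 2.18e-09). In winter Muscat Superior it averaged 125 ± 1.73 FPKM at E-L 35, 33.2 ± 10.3 FPKM at E-L 36 and 13.3 ± 2.40 FPKM at E-L 38 (SD, n = 3 each; log2 fold change -3.13, SE 0.41, edgeR adjusted p = 5.72e-07). In summer Muscat Superior it averaged 386 ± 37.8 FPKM at E-L 35, 128 ± 19.9 FPKM at E-L 36 and 72.2 ± 15.6 FPKM at E-L 38 (SD, n = 3 each; log2 fold change -2.43, SE 0.39, edgeR adjusted p = 2.35e-05). Replicates at E-L 38 lay below those at E-L 35 in these 3 series.

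Summer Victoria departed from this course. EXPA18 averaged 43.8 ± 10.3 FPKM at E-L 35, 129.7 ± 76.9 FPKM at E-L 36 and 64.3 ± 10.4 FPKM at E-L 38 there (SD, n = 3 each), and E-L 38 against E-L 35 was not called (log2 fold change 0.82, SE 0.37, edgeR adjusted p = 0.0769). It rose at E-L 36 over E-L 35 (log2 fold change 1.80, SE 0.38, edgeR adjusted p = 0.000396), with a wide spread at E-L 36, where replicate 1 was far below replicates 2 and 3. Without that replicate the log2 fold change of the step was 2.20, with adjusted p from 8.81e-06 to 0.0282 over its alternatives.

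EXPA2 declined in all 4 series. It averaged 19.4 ± 1.40 FPKM at E-L 35, 6.82 ± 0.162 FPKM at E-L 36 and 3.12 ± 0.305 FPKM at E-L 38 in winter Muscat Superior (SD, n = 3 each; log2 fold change -2.52, SE 0.22, edgeR adjusted p = 6e-10). It averaged 23.1 ± 1.65 FPKM at E-L 35, 13.1 ± 2.71 FPKM at E-L 36 and 11.4 ± 3.48 FPKM at E-L 38 in summer Muscat Superior (SD, n = 3 each; log2 fold change -1.02, SE 0.20, edgeR adjusted p = 0.00024). The winter series thus ended at less than the summer one, from starting levels whose crop difference was not called. It averaged 16.1 ± 2.64 FPKM at E-L 35, 3.09 ± 0.78 FPKM at E-L 36 and 1.81 ± 0.407 FPKM at E-L 38 in winter Victoria (SD, n = 3 each; log2 fold change -3.03, SE 0.25, edgeR adjusted p = 7.86e-11). It averaged 32.4 ± 1.93 FPKM at E-L 35, 18.6 ± 4.52 FPKM at E-L 36 and 13.8 ± 2.51 FPKM at E-L 38 in summer Victoria (SD, n = 3 each; log2 fold change -0.96, SE 0.20, edgeR adjusted p = 0.000289). All 4 of these falls were called in each alternative.

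EXPA16 fell in winter berries of both cultivars. It averaged 32.5 ± 1.15 FPKM at E-L 35, 7.52 ± 4.07 FPKM at E-L 36 and 2.78 ± 1.51 FPKM at E-L 38 in winter Muscat Superior (SD, n = 3 each; log2 fold change -3.38, SE 0.51, edgeR adjusted p = 4.68e-06). It averaged 23.3 ± 10.1 FPKM at E-L 35, 4.80 ± 0.62 FPKM at E-L 36 and 1.77 ± 1.25 FPKM at E-L 38 in winter Victoria (SD, n = 3 each; log2 fold change -3.55, SE 0.55, edgeR adjusted p = 6.35e-06). In summer berries its E-L 38 levels did not pass against E-L 35, at -0.65 in Muscat Superior and -0.65 in Victoria on the log2 scale (adjusted p = 0.251 and 0.267, edgeR). The crop difference in this change was itself past the threshold in both cultivars.

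The largest fall of EXPA14 was in summer Muscat Superior, where it averaged 1654 ± 168 FPKM at E-L 35, 558 ± 279 FPKM at E-L 36 and 222 ± 37.2 FPKM at E-L 38 (SD, n = 3 each; log2 fold change -2.90, SE 0.29, edgeR adjusted p = 2.47e-08). In winter Muscat Superior it averaged 799 ± 36.4 FPKM at E-L 35, 518 ± 122 FPKM at E-L 36 and 231 ± 46.8 FPKM at E-L 38 (SD, n = 3 each; log2 fold change -1.68, SE 0.28, edgeR adjusted p = 1.4e-05). In winter Victoria it averaged 1179.9 ± 163 FPKM at E-L 35, 339 ± 20.8 FPKM at E-L 36 and 289 ± 15.7 FPKM at E-L 38 (SD, n = 3 each; log2 fold change -1.92, SE 0.28, edgeR adjusted p = 1.83e-06). The harvest libraries were below the E-L 35 libraries in all 3 series. In summer Victoria it averaged 977 ± 87.9 FPKM at E-L 35, 365 ± 82.4 FPKM at E-L 36 and 527 ± 143 FPKM at E-L 38 (SD, n = 3 each), and the change from E-L 35 to E-L 38 was not called (log2 fold change -0.62, SE 0.27, edgeR adjusted p = 0.0649). It passed there without E-L 38 replicate 2 (-0.85, with adjusted p from 0.0047 to 0.22 over its alternatives).

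EXPA11 fell at E-L 38 in 3 series. In winter Muscat Superior it averaged 51.8 ± 1.73 FPKM at E-L 35, 60 ± 12.4 FPKM at E-L 36 and 5.85 ± 3.51 FPKM at E-L 38 (SD, n = 3 each; log2 fold change -3.01, SE 0.49, edgeR adjusted p = 1.46e-05), the fall coming after E-L 36. Without E-L 38 replicate 2 that value was -3.62, with adjusted p from 5.29e-08 to 0.00224 over its alternatives. In winter Victoria it averaged 9.16 ± 1.19 FPKM at E-L 35, 0.4 ± 0.0693 FPKM at E-L 36 and 1.02 ± 0.774 FPKM at E-L 38 (SD, n = 3 each; log2 fold change -2.99, SE 0.64, edgeR adjusted p = 0.000333), the fall coming before E-L 36. In summer Muscat Superior it averaged 59.3 ± 2.49 FPKM at E-L 35, 36.5 ± 10.6 FPKM at E-L 36 and 21.1 ± 10.9 FPKM at E-L 38 (SD, n = 3 each; log2 fold change -1.49, SE 0.45, edgeR adjusted p = 0.0112), a call lost without E-L 38 replicate 1 (-1.33) or replicate 3 (-1.22, with adjusted p from 0.000687 to 0.0725 over its alternatives). In summer Victoria its change was not called (log2 fold change -0.61, SE 0.55, edgeR adjusted p = 0.389).

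EXPA19 was called lower at E-L 38 than at E-L 35 in 2 series of stages, and EXPA1 in 0. EXPA19 fell in summer Muscat Superior, where it averaged 1613 ± 54.7 FPKM at E-L 35, 1176 ± 365 FPKM at E-L 36 and 764 ± 69.8 FPKM at E-L 38 (SD, n = 3 each; log2 fold change -1.08, SE 0.20, edgeR adjusted p = 0.000129). In winter Muscat Superior it averaged 1894 ± 56.1 FPKM at E-L 35, 2029 ± 319 FPKM at E-L 36 and 1169 ± 115 FPKM at E-L 38 (SD, n = 3 each; log2 fold change -0.59, SE 0.20, edgeR adjusted p = 0.016), a call lost when near-identical libraries were summed (-0.61) and without E-L 38 replicate 3 (-0.52, with adjusted p from 1.67e-05 to 0.138 over its alternatives). In Victoria EXPA19 did not pass in winter berries (log2 fold change -0.09, SE 0.20, edgeR adjusted p = 0.722) or in summer berries (log2 fold change -0.40, SE 0.20, edgeR adjusted p = 0.109). EXPA1 rose in winter Victoria, where it averaged 83.2 ± 16.5 FPKM at E-L 35, 119 ± 4.51 FPKM at E-L 36 and 184 ± 27.6 FPKM at E-L 38 (SD, n = 3 each; log2 fold change 1.24, SE 0.26, edgeR adjusted p = 0.000256). It was the one rise among the 28 tests of E-L 38 against E-L 35, and EXPA1 was not called in the other 3 series, with log2 fold changes of 0.42 in winter Muscat Superior, -0.35 in summer Muscat Superior and 0.06 in summer Victoria. With both doubtful Victoria libraries out of the fit, EXPA1 was also called in winter Muscat Superior (0.42, with adjusted p from 0.000405 to 0.521 over its alternatives) and in summer Muscat Superior (-0.35, with adjusted p from 0.0297 to 0.641 over its alternatives). Neither library belongs to these Muscat Superior series, and both values matched those of the full fit.

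Most of the winter decline in Victoria came before E-L 36, where 1 locus was higher and 5 lower than at E-L 35, beside 21.2% and 22% of all genes. EXPA18 changed by -4.02 on the log2 scale in this step (adjusted p = 3.03e-08, edgeR) and EXPA2 by -2.24 (adjusted p = 9.97e-09, edgeR). At E-L 38 against E-L 36 in winter Victoria, 0 were higher and 1 lower, beside 8.77% and 9.18%; that locus, EXPA2 (log2 fold change -0.78, SE 0.27, edgeR adjusted p = 0.0396), lost its call on summing the near-identical libraries (-0.85), and without E-L 36 replicate 1 (-0.76) or 3 (-0.61) and E-L 38 replicate 1 (-0.58) or 3 (-0.84, with adjusted p from 0.0172 to 0.251 over its alternatives). EXPA1, the locus that was higher at E-L 36 (log2 fold change 0.66, SE 0.26, edgeR adjusted p = 0.04), lost its call without E-L 35 replicate 2 or 3, without any 1 replicate of E-L 36 or with near-identical libraries summed; over its alternatives its value ran from 0.51 to 0.76 and its adjusted p from 0.000104 to 0.225. EXPA16, 1 of the 5 lower in the first step (log2 fold change -2.14, SE 0.49, edgeR adjusted p = 0.000797), lost its call with near-identical libraries summed (-2.12, with adjusted p from 5.2e-05 to 0.0589 over its alternatives).

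In winter Muscat Superior calls were made in both steps: 1 locus was higher and 3 lower at E-L 36 than at E-L 35, beside 17.8% and 18.8% of all genes, and 0 were higher and 5 lower at E-L 38 than at E-L 36, beside 12.3% and 13.1%. EXPA11 was not called in the first step, at 0.29 (adjusted p = 0.635, edgeR), and fell in the second, at -3.30 (adjusted p = 2.16e-05, edgeR). EXPA1, the locus that was higher at E-L 36 (log2 fold change 0.74, SE 0.26, edgeR adjusted p = 0.0245), lost its call without any 1 replicate of E-L 35, without E-L 36 replicate 3 or with near-identical libraries summed; over its alternatives its value ran from 0.63 to 0.81 and its adjusted p from 3.26e-05 to 0.26. EXPA18, 1 of the 3 lower in the first step (log2 fold change -1.78, SE 0.38, edgeR adjusted p = 0.000605), lost its call with near-identical libraries summed (-1.62, with adjusted p from 2.92e-05 to 0.073 over its alternatives). EXPA18 was also 1 of the 5 lower in the second step (log2 fold change -1.35, SE 0.39, edgeR adjusted p = 0.0119), where it lost its call without E-L 36 replicate 3 or E-L 38 replicate 3; over its alternatives its value ran from -1.52 to -0.97 and its adjusted p from 0.00252 to 0.0939.

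In summer Muscat Superior, 0 loci were higher and 3 lower at E-L 36 than at E-L 35, beside 12% and 11% of all genes. EXPA14 (-1.45, adjusted p = 0.000344, edgeR) and EXPA18 (-1.47, adjusted p = 0.00535, edgeR) led this step on the log2 scale, and EXPA2 (-0.69) lost its call without E-L 36 replicate 1 or 3. In the second step 0 were higher and 2 lower, beside 0.993% and 1.6% of all genes, and without E-L 38 replicate 3 the count of lower loci was 0. The pair was EXPA14 (-1.45) and EXPA19 (-0.75). Over its alternatives the EXPA14 value ran from -1.80 to -1.12 and its adjusted p from 2.57e-05 to 0.282. The EXPA19 value ran from -0.97 to -0.51 and its adjusted p from 0.00257 to 0.312. EXPA19 lost its call with near-identical libraries summed, among other settings.

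In summer Victoria, 2 loci were higher and 2 lower at E-L 36 than at E-L 35, beside 21.3% and 21.6% of all genes. EXPA18 and EXPA14 kept their calls in each alternative, while EXPA2 (-0.56; over its alternatives its value ran from -0.82 to -0.39 and its adjusted p from 0.00106 to 0.128) and EXPA11 (1.30; over its alternatives its value ran from 0.55 to 1.83 and its adjusted p from 0.00046 to 0.484) did not. Without E-L 36 replicate 1, the library in doubt, EXPA2 was at -0.39 and EXPA11 at 1.83. With near-identical libraries summed, EXPA2 and EXPA11 both lost their calls in this step. At E-L 38 against E-L 36 in summer Victoria 0 were higher and 0 lower, beside 0.0405% and 0.193% of all genes, and DESeq2 called 1. Without E-L 36 replicate 1, 3 loci were called in that step: EXPA1 at 0.96, with adjusted p from 5.52e-05 to 1 over its alternatives, EXPA11 at -2.44, with adjusted p from 0.00122 to 1 over its alternatives, and EXPA18 at -1.37, with adjusted p from 0.0102 to 1 over its alternatives.

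Other called summer steps held without the doubtful libraries, with 1 exception. In summer Victoria the fall of EXPA14 from E-L 35 to E-L 36 was -1.16 with all libraries and -1.39 with both doubtful ones out. EXPA1, at -0.12 with all libraries, was then called lower in that step, at -0.90, with adjusted p from 1.96e-05 to 0.985 over its alternatives. The fall of EXPA2 from E-L 35 to E-L 38 was -0.93 without them. In summer Muscat Superior without E-L 36 replicate 1, the first step was -1.10 for EXPA14 and -1.36 for EXPA18. EXPA2 was the exception, at -0.57, with adjusted p from 0.00306 to 0.0838 over its alternatives, no longer past the threshold. The second step was then -1.80 for EXPA14 and -0.97 for EXPA19.

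Winter and summer berries differed in the ripening change itself, tested as the winter change from E-L 35 to E-L 38 minus the summer one. In Muscat Superior, 1 locus had a higher winter change and 2 a lower one, beside 13.2% and 13.8% of all genes. EXPA16 (difference in log2 fold change -2.73, SE 0.66, edgeR adjusted p = 0.00267) and EXPA2 (difference in log2 fold change -1.50, SE 0.30, edgeR adjusted p = 0.0004) declined more in winter berries, and EXPA14 declined less (difference in log2 fold change 1.22, SE 0.38, edgeR adjusted p = 0.0178). The EXPA14 difference was lost when near-identical libraries were summed (1.20) and without summer E-L 38 replicate 3 (1.07, with adjusted p from 0.000984 to 0.147 over its alternatives).

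In Victoria, 1 locus had a higher winter change and 5 a lower one, beside 19.9% and 22.9% of all genes. The widest difference was that of EXPA18 (difference in log2 fold change -5.49, SE 0.57, edgeR adjusted p = 2.62e-08), with a called decline in winter berries (-4.67) and an estimate above 0 in summer berries that was not called (0.82). EXPA16 (difference in log2 fold change -2.90, SE 0.73, edgeR adjusted p = 0.00211), EXPA2 (difference in log2 fold change -2.07, SE 0.32, edgeR adjusted p = 6.55e-06) and EXPA14 (difference in log2 fold change -1.30, SE 0.38, edgeR adjusted p = 0.0069) also had lower winter changes, and EXPA1 had a higher one (difference in log2 fold change 1.17, SE 0.36, edgeR adjusted p = 0.0109). The EXPA11 difference (difference in log2 fold change -2.38, SE 0.87, edgeR adjusted p = 0.0284) was lost without summer E-L 38 replicate 1 (-2.19) or 2 (-2.16), winter E-L 35 replicate 3 (-2.29) or winter E-L 38 replicate 1 (-1.89), and with near-identical libraries summed (-2.50, with adjusted p from 0.00607 to 0.0927 over its alternatives). EXPA19 was called in neither cultivar. These tests use the same libraries as the crop and ripening comparisons and are not further evidence for them.

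Between cultivars, averaged over crops and stages, 5 of the 7 loci were higher in Muscat Superior and 0 were lower, beside 31.4% and 31.2% of all genes. EXPA11 stood out by size, with an 11.9-fold higher level in Muscat Superior (log2 fold change 3.58, SE 0.23, edgeR adjusted p = 1.49e-13). Its lowest and highest library values were 3.72 and 70.1 FPKM in Muscat Superior, against 0.16 and 14.7 FPKM in Victoria. The ranges overlapped across stages, but within each of the 6 crop and stage pairs every Muscat Superior library was above every Victoria library. EXPA16 (log2 fold change 1.27, SE 0.20, edgeR adjusted p = 2.87e-06), EXPA18 (log2 fold change 0.95, SE 0.16, edgeR adjusted p = 6.62e-06) and EXPA19 (log2 fold change 0.35, SE 0.08, edgeR adjusted p = 0.000474) were also higher in Muscat Superior on average. Single groups went the other way: EXPA18 averaged 125 ± 1.73 FPKM in Muscat Superior and 203 ± 40.1 FPKM in Victoria in winter berries at E-L 35 (SD, n = 3 each). Its summer means at E-L 36 were close, at 128 ± 19.9 FPKM in Muscat Superior and 129.7 ± 76.9 FPKM in Victoria (SD, n = 3 each). With the scaling used for the tests, the Muscat Superior mean was the higher one there, at 255 against 228 CPM. EXPA19 averaged 1169 ± 115 FPKM in Muscat Superior and 1297 ± 316 FPKM in Victoria in winter berries at E-L 38 (SD, n = 3 each). In summer berries at E-L 38 it averaged 764 ± 69.8 FPKM in Muscat Superior and 802 ± 142 FPKM in Victoria (SD, n = 3 each). For EXPA2 the direction of the means turned with the crop. In winter berries its means were 19.4, 6.82 and 3.12 FPKM in Muscat Superior at E-L 35, 36 and 38, above 16.1, 3.09 and 1.81 FPKM in Victoria. In summer berries they were 23.1, 13.1 and 11.4 FPKM in Muscat Superior, below 32.4, 18.6 and 13.8 FPKM in Victoria. The average over both crops passed with a small value for EXPA2 (log2 fold change 0.26, SE 0.09, edgeR adjusted p = 0.011) and not on the log2(FPKM + 1) scale in limma (0.09, with adjusted p from 0.0012 to 0.302 over its alternatives). EXPA1 and EXPA14 were not called (0.20 and 0.09 on the log2 scale), and the sign of EXPA14 turned on the FPKM scale. Without the 2 doubtful summer Victoria libraries EXPA1 was called, at 0.30, with adjusted p from 1.46e-05 to 0.284 over its alternatives.

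The crop effect differed between cultivars for 2 loci at each stage, tested as the Muscat Superior effect minus the Victoria effect. At E-L 35, 0 were higher and 2 lower, beside 8.51% and 9.56% of all genes: EXPA18 (difference in log2 fold change -4.04, SE 0.54, edgeR adjusted p = 1.42e-05) and EXPA14 (difference in log2 fold change -1.53, SE 0.38, edgeR adjusted p = 0.0062). EXPA18 thus fell in winter Muscat Superior and rose in winter Victoria, while the EXPA14 difference was lost when near-identical libraries were summed (-1.53, with adjusted p from 2.64e-05 to 0.102 over its alternatives). At E-L 36, 2 were higher and 0 lower, beside 9.23% and 9.44% of all genes: EXPA11 (difference in log2 fold change 5.15, SE 0.86, edgeR adjusted p = 0.00013) and EXPA2 (difference in log2 fold change 1.52, SE 0.31, edgeR adjusted p = 0.000791). The EXPA11 difference rests on the 8, 5 and 7 reads of winter Victoria, and over its alternatives its value ran from 3.31 to 5.68 and its adjusted p from 5.53e-09 to 0.018. Without the 2 doubtful summer Victoria libraries 2 more differences at E-L 36 were called, EXPA1 at -1.28, with adjusted p from 2.04e-05 to 0.725 over its alternatives and EXPA18 at 1.86, with adjusted p from 0.00428 to 0.244 over its alternatives.

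At E-L 38, 1 was higher and 1 lower, beside 8.17% and 8.58% of all genes. EXPA1 gained less in winter Muscat Superior than in winter Victoria (difference in log2 fold change -1.28, SE 0.36, edgeR adjusted p = 0.0156). With near-identical libraries summed this call was lost (-1.33, with adjusted p from 0.000117 to 0.0546 over its alternatives). EXPA2 fell less in winter Muscat Superior than in winter Victoria (difference in log2 fold change 1.12, SE 0.34, edgeR adjusted p = 0.0209). That EXPA2 difference was lost without summer Muscat Superior replicate 3 (0.87), winter Muscat Superior replicate 2 (1.06), summer Victoria replicate 2 (0.98) or winter Victoria replicate 1 (0.92, with adjusted p from 0.00885 to 0.0781 over its alternatives). EXPA16 and EXPA19 were called in none of the 3 stages.

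The makeup of the alpha-expansin transcript differed between crops and stages, given here as FPKM ratios within a library and without a test. In Muscat Superior the ratio of EXPA19 to EXPA14 at E-L 35 was 2.38 ± 0.179 in winter berries and 0.98 ± 0.0681 in summer berries (SD, n = 3 each), and at E-L 38 it was 5.14 ± 0.66 in winter berries and 3.51 ± 0.656 in summer berries (SD, n = 3 each). For Victoria the ratio at E-L 35 was 1.28 ± 0.0839 in winter berries and 1.31 ± 0.0342 in summer berries (SD, n = 3 each), and at E-L 38 it was 4.46 ± 0.879 in winter berries and 1.58 ± 0.427 in summer berries (SD, n = 3 each). The ratio was highest in winter berries past the onset of ripening, with 3.96 ± 0.285 in Muscat Superior and 4.38 ± 0.25 in Victoria at E-L 36 (SD, n = 3 each).

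In winter berries of both cultivars, EXPA1 and EXPA18 traded places between E-L 35 and E-L 38. The ratio of EXPA1 to EXPA18 in Victoria at E-L 35 was 0.412 ± 0.0479 in winter berries and 1.23 ± 0.222 in summer berries (SD, n = 3 each). At E-L 38 it ran from 16.4 to 90.3 in the winter Victoria libraries, against 0.504 to 1.00 in the summer ones. In Muscat Superior at E-L 35 it was 0.631 ± 0.029 in winter berries and 0.206 ± 0.0267 in summer berries (SD, n = 3 each). In that cultivar at E-L 38 it was 7.53 ± 1.44 in winter berries and 0.919 ± 0.365 in summer berries (SD, n = 3 each). EXPA1 was therefore the more abundant of this pair in all winter harvest libraries, while the ratio of the summer harvest libraries lay between 0.504 and 1.25. Both loci share reads with others, which limits these ratios.

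The summed FPKM of the 7 loci ran from 1106 to 4080 across libraries. In Muscat Superior it averaged 2999 ± 26.5 FPKM in winter berries and 3852 ± 255 FPKM in summer berries at E-L 35 (SD, n = 3 each). At E-L 38 it averaged 1523 ± 171 FPKM in winter berries and 1178 ± 107 FPKM in summer berries of that cultivar (SD, n = 3 each). The winter sum was thus the lower one at E-L 35 and the higher one at E-L 38. In Victoria the winter and summer sums were 3016 ± 387 and 2399 ± 170.1 FPKM at E-L 35, and 1782 ± 311 and 1462 ± 224 FPKM at E-L 38 (SD, n = 3 each).

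**Figure D4:**
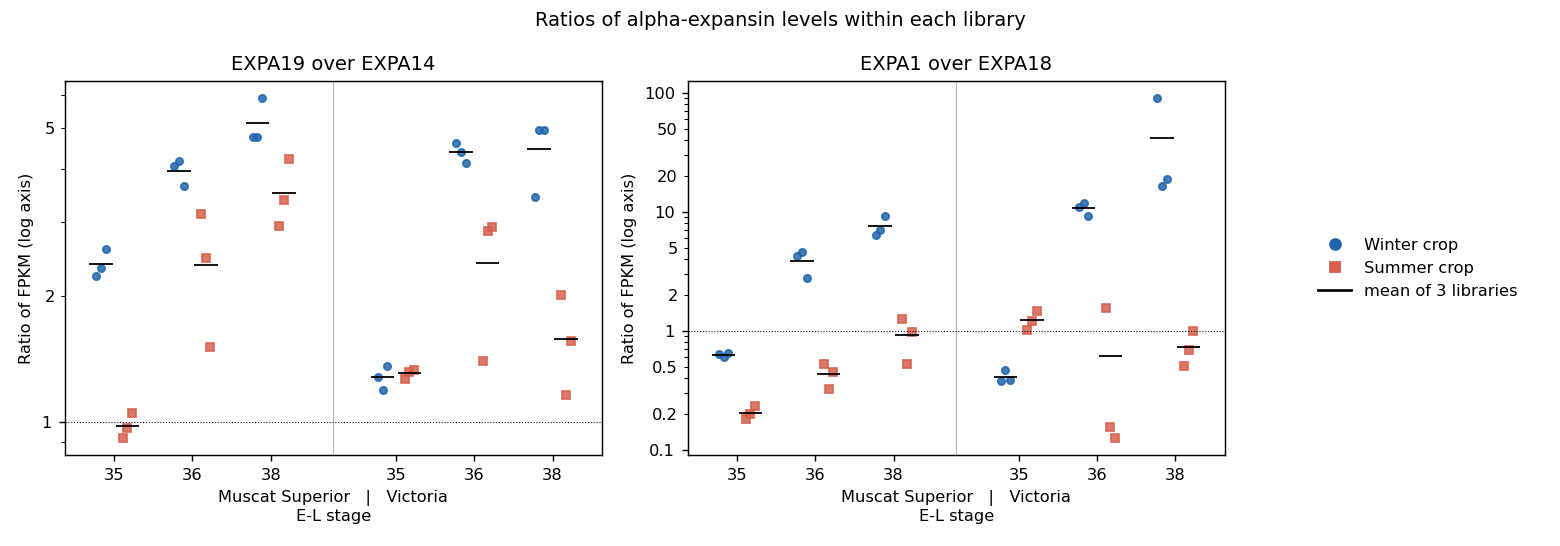
Ratios of FPKM between alpha-expansins within each library (log axes), at E-L 35, 36 and 38 in winter and summer berries of Muscat Superior and Victoria; points are libraries and bars are means of 3. EXPA1 over EXPA18 reaches 90.3 in a winter Victoria library at E-L 38, and EXPA19 over EXPA14 runs from 0.916 to 5.90.

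Across the 12 group means of log2 CPM, the loci fell into like and unlike pairs. EXPA16 and EXPA18 were most alike (Pearson r = 0.91), followed by EXPA2 and EXPA18 (r = 0.86) and EXPA2 and EXPA16 (r = 0.83). EXPA1 ran opposite to EXPA2 (r = -0.80) and along with EXPA19 (r = 0.65). For EXPA18 and EXPA19 r was 0.0029. These values describe 12 group means that share cultivar, crop and stage, and no p is attached to them.

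**Figure D5:**
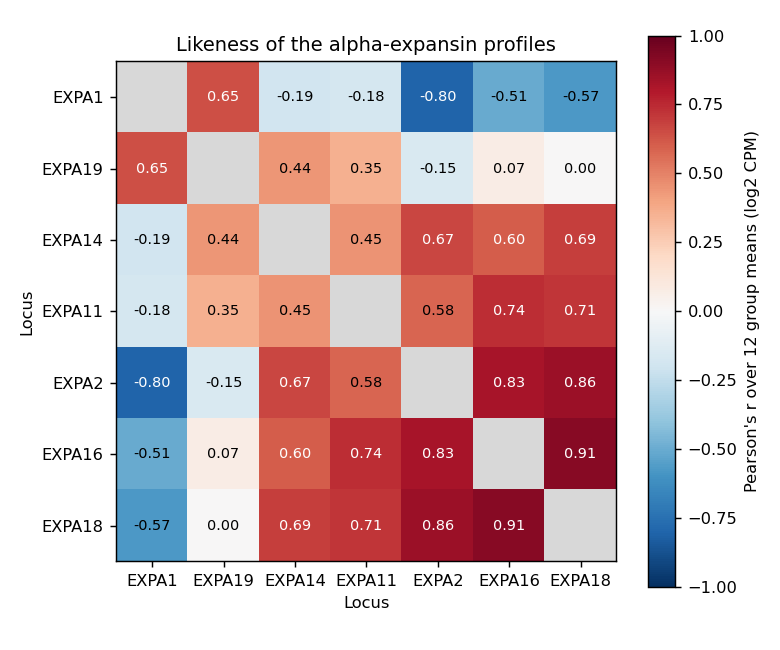
Pearson correlation of mean log2 CPM between the 7 alpha-expansins over 12 groups, as a colour from negative to positive with the value in each cell. EXPA2, EXPA16 and EXPA18 form a block of values from 0.83 to 0.91, and EXPA1 with EXPA2 is at -0.80.

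Outside the family, the gene whose 12 group means were most like those of a member was picked from 12605 genes that reached 10 CPM in some group. For EXPA1 it was VIT_207s0151g00970 (r = 0.96), for EXPA2 VIT_210s0003g00120 (r = 0.99), and for EXPA11 VIT_218s0001g15160 (r = 0.97). For EXPA14 it was VIT_208s0040g01920 (r = 0.94), for EXPA16 VIT_218s0122g01440 (r = 0.97), for EXPA18 VIT_216s0022g00940 (r = 0.95) and for EXPA19 VIT_215s0021g00220 (r = 0.95). The files do not pair these identifiers with names, and with so many candidates a high best value carries little information.

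Another 4 loci recalled as cell-wall genes, whose identity was not checked, were counted beside the expansins. In winter against summer Muscat Superior at E-L 35, 0 were higher and 1 lower, beside 9.33% and 8.25% of all genes. At E-L 36, 1 was higher and 2 lower, beside 21% and 21.6%. At E-L 38, 1 was higher and 0 lower, beside 22.7% and 22.4%. In Victoria at E-L 35, 2 were higher and 0 lower, beside 21.8% and 20.3% of all genes. At E-L 36, 2 were higher and 2 lower, beside 24.9% and 25.9%. At E-L 38, 0 were higher and 2 lower, beside 26.5% and 27.8%. With 4 loci and such shares, these counts are not read as a result about cell-wall genes.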

How the data were processed

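RNA-seq tables of 36 libraries were used, 12 groups of 3 biological replicates. Per the file headers, the authors deposited for each locus an expected count (fractional where reads were divided among loci), an FPKM value (fragments per kilobase, scaled to library size) and a transcript length in bases. The submitters' processing notes name Bowtie for alignment; what counted the reads, and on which build and annotation, is not given in the sources used here. Unlisted loci were entered as 0. Of 28119 identifiers, 0 matched the supplied gene table, so names rest on the member list and no sequence is shown.

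Expected counts were rounded and tested with edgeR 4.0.16 in R 4.3.3 (TMM, filterByExpr, robust quasi-likelihood F test, means model of 12 groups, 24 residual degrees of freedom, 24 contrasts). After filtering, 19736 genes remained; TMM factors lay between 0.851 and 1.202, and the biological coefficient of variation was 0.172. P-values were adjusted by Benjamini-Hochberg over all tested genes of a contrast and a gene was called below 0.05. The procedure was tested on simulated counts with the same dispersion for all genes and groups. That setting held no near-identical or doubtful libraries, so it does not cover their effect on the calls. All tests share libraries, and intervals and the 3-read floor cover model and counting error only.

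The named genes were all 7 members and, for each, non-member genes most correlated over the 12 group means, of which the first of 3 is printed. The members, the 4 other cell-wall loci and the tests were chosen with earlier results of these data known. Alternatives were DESeq2 1.42.0, no filter, limma 3.58.1 on log2(FPKM + 1) and log2(FPKM + 0.1), a replicate block, near-identical libraries summed (30 libraries), the 2 doubtful summer Victoria libraries left out, each library left out in turn, and a fit to the compared groups only.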

Additional observations from a re-analysis of the deposited data

Results flagged for a closer look

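Results are listed here because an effect of the same contrast differed between groups by its own test in edgeR (adjusted p below 0.05). No explanation was tested for any of them.

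The winter-minus-summer difference, as Muscat Superior minus Victoria on the log2 scale, differed for EXPA18 by -4.04 and for EXPA14 by -1.53 at E-L 35. EXPA18 was the only locus of the 7 that was called in opposite directions in the cultivars, lower in winter Muscat Superior and higher in winter Victoria. At E-L 36 the difference was 5.15 for EXPA11 and 1.52 for EXPA2. Both fell in winter Victoria, and EXPA2 also fell, by less, in winter Muscat Superior (log2 fold change -1.02). The EXPA11 difference rests on 8, 5 and 7 reads in winter Victoria and ran from 3.31 to 5.68 over its alternatives. At E-L 38 it was -1.28 for EXPA1 and 1.12 for EXPA2.

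The change from E-L 35 to E-L 38, as winter minus summer on the log2 scale, differed in Muscat Superior for EXPA2 by -1.50, for EXPA14 by 1.22 and for EXPA16 by -2.73. In Victoria it differed for EXPA18 by -5.49, for EXPA16 by -2.90, for EXPA11 by -2.38, for EXPA2 by -2.07, for EXPA14 by -1.30 and for EXPA1 by 1.17. EXPA2 and EXPA16 declined more in winter berries of both cultivars, while the sign for EXPA14 was opposite between them; whether the EXPA14 difference itself differs between cultivars was not tested.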

How the results depend on the processing

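Of the 168 tests of the 7 loci (24 comparisons), 91 were called, 63 of them in every alternative run, and no called value changed sign in any; 19 values that were not called did. Among the 42 crop tests, 28 were called and 19 kept the call throughout. The number of calls over the 168 tests was 97 with DESeq2, 86 with no filter on low counts, 92 and 93 with limma on log2(FPKM + 1) and log2(FPKM + 0.1), 73 with near-identical libraries summed and 106 without the 2 doubtful summer Victoria libraries. The replicate numbers shared by the groups are not said to mark a vine, day or batch, and same-numbered libraries of compared groups deviated together with correlations from -0.475 to 0.116, above 0.1 for all pairs in 0 of 18 comparisons. With the replicate number as a block, 92 of the 168 tests were called. Here 38/35 stands for E-L 38 against E-L 35, crop for winter against summer, cultivar-by-crop for the Muscat Superior minus Victoria crop effect, and crop-by-ripening for the winter minus summer change from E-L 35 to E-L 38. With DESeq2, the count of expansins called was 1 (against 0) for summer Victoria 38/36 and 2 (against 1) for winter Victoria 38/36. With no filter on low counts, the count of expansins called was 1 (against 2) for summer Muscat Superior 38/36. With limma on log2(FPKM + 1), the count of expansins called was 3 (against 1) for summer Victoria 38/35 and 1 (against 2) for summer Muscat Superior 38/36. With limma on log2(FPKM + 0.1), the count of expansins called was 3 (against 1) for summer Victoria 38/35, 2 (against 1) for winter Victoria 38/36 and 1 (against 2) for summer Muscat Superior 38/36. With near-identical libraries summed, the count of expansins called was 0 (against 2) for crop, Muscat Superior E-L 35, 2 (against 4) for summer Victoria 36/35, 0 (against 1) for winter Victoria 38/36, 1 (against 2) for summer Muscat Superior 38/36, 2 (against 4) for winter Muscat Superior 36/35, 1 (against 2) for cultivar-by-crop at E-L 35 and 1 (against 2) for cultivar-by-crop at E-L 38. With near-identical libraries summed, the count of the 4 other cell-wall loci called was 1 (against 4) for crop, Victoria E-L 36, 0 (against 1) for crop, Muscat Superior E-L 35 and 0 (against 3) for crop, Muscat Superior E-L 36. Without the 2 doubtful summer Victoria libraries, the count of expansins called was 3 (against 0) for summer Victoria 38/36, 2 (against 1) for winter Victoria 38/36, 4 (against 2) for cultivar-by-crop at E-L 35, 4 (against 2) for cultivar-by-crop at E-L 36 and 5 (against 3) for crop-by-ripening in Muscat Superior. Without the 2 doubtful summer Victoria libraries, the count of the 4 other cell-wall loci called was 2 (against 4) for crop, Victoria E-L 36. In a fit to the compared groups only, the count of expansins called was 6 (against 3) for crop, Victoria E-L 35, 5 (against 2) for crop, Muscat Superior E-L 35, 2 (against 4) for summer Victoria 36/35, 3 (against 1) for summer Victoria 38/35, 2 (against 1) for winter Victoria 38/36, 0 (against 2) for summer Muscat Superior 38/36, 6 (against 2) for cultivar-by-crop at E-L 35 and 6 (against 3) for crop-by-ripening in Muscat Superior. In a fit to the compared groups only, the count of the 4 other cell-wall loci called was 1 (against 2) for crop, Victoria E-L 38, 4 (against 1) for crop, Muscat Superior E-L 35, 0 (against 3) for crop, Muscat Superior E-L 36 and 2 (against 1) for crop, Muscat Superior E-L 38. With limma on log2(FPKM + 1), the log2 values of uncalled loci that changed sign were EXPA14 0.023 (crop, Muscat Superior E-L 36), EXPA1 -0.22 (summer Victoria 38/35), EXPA19 -0.013 (winter Victoria 36/35), EXPA16 -0.15 (summer Muscat Superior 36/35), EXPA14 -0.050 (Muscat Superior against Victoria) and EXPA14 0.11 (cultivar-by-crop at E-L 36). With limma on log2(FPKM + 0.1), the log2 values of uncalled loci that changed sign were EXPA14 0.023 (crop, Muscat Superior E-L 36), EXPA1 -0.22 (summer Victoria 38/35), EXPA19 -0.013 (winter Victoria 36/35), EXPA16 -0.16 (summer Muscat Superior 36/35), EXPA14 -0.051 (Muscat Superior against Victoria) and EXPA14 0.11 (cultivar-by-crop at E-L 36). With the replicate number as a block, the log2 values of uncalled loci that changed sign were EXPA16 0.018 (summer Victoria 36/35) and EXPA19 0.0049 (cultivar-by-crop at E-L 38). With near-identical libraries summed, the log2 values of uncalled loci that changed sign were EXPA16 0.015 (summer Victoria 36/35), EXPA14 0.055 (cultivar-by-crop at E-L 36) and EXPA19 0.090 (cultivar-by-crop at E-L 38). Without the 2 doubtful summer Victoria libraries, the log2 values of uncalled loci that changed sign were EXPA14 0.16 (crop, Victoria E-L 36). In a fit to the compared groups only, the log2 values of uncalled loci that changed sign were EXPA16 0.025 (summer Victoria 36/35). The cause was not tested. On leaving out each library in turn, counts of called loci ran 2 to 4 for cultivar-by-crop at E-L 36, 1 to 2 for cultivar-by-crop at E-L 38, 0 to 2 for summer Muscat Superior 38/36, 2 to 4 for summer Victoria 36/35, 1 to 2 for summer Victoria 38/35, 0 to 3 for summer Victoria 38/36, 0 to 1 for winter Victoria 38/36, 0 to 1 for crop, Muscat Superior E-L 35 among the other cell-wall loci and 2 to 4 for crop, Victoria E-L 36 among the other cell-wall loci. Log2 values that changed sign, all uncalled, ran EXPA1 -0.079 to 0.20 (summer Muscat Superior 38/36), EXPA1 -0.89 to 0.17 (summer Victoria 36/35), EXPA1 -0.054 to 0.21 (summer Victoria 38/35), EXPA1 -0.11 to 0.96 (summer Victoria 38/36), EXPA11 -1.11 to 0.049 (cultivar-by-crop at E-L 38), EXPA14 -0.41 to 0.27 (cultivar-by-crop at E-L 36), EXPA14 -0.50 to 0.19 (crop, Muscat Superior E-L 36), EXPA14 -0.030 to 0.27 (crop, Muscat Superior E-L 38), EXPA14 -0.20 to 0.16 (crop, Victoria E-L 36), EXPA16 -0.41 to 0.58 (summer Muscat Superior 36/35), EXPA16 -0.20 to 0.19 (summer Victoria 36/35), EXPA19 -0.39 to 0.089 (cultivar-by-crop at E-L 36), EXPA19 -0.25 to 0.11 (cultivar-by-crop at E-L 38), EXPA19 -0.0081 to 0.33 (winter Muscat Superior 36/35), EXPA19 -0.15 to 0.10 (summer Victoria 38/36), EXPA19 -0.23 to 0.14 (winter Victoria 38/35) and EXPA19 -0.35 to 0.018 (winter Victoria 38/36). Counts of all called genes that moved by more than 1.5 times, the reported count first, were 10014 and 6220 for crop, Victoria E-L 36, 3470 and 527 to 7939 for crop, Muscat Superior E-L 35, 8410 and 5533 for crop, Muscat Superior E-L 36, 46 and 0 to 2950 for summer Victoria 38/36, 8522 and 4622 for winter Victoria 36/35, 3542 and 268 for winter Victoria 38/36, 4534 and 2976 to 3015 for summer Muscat Superior 36/35, 511 and 3 to 1539 for summer Muscat Superior 38/36, 7225 and 2577 for winter Muscat Superior 36/35, 5006 and 3039 for winter Muscat Superior 38/36, 9115 and 5331 for winter Muscat Superior 38/35, 3566 and 937 for cultivar-by-crop at E-L 35, 3686 and 999 to 1982 for cultivar-by-crop at E-L 36, 3306 and 2002 for cultivar-by-crop at E-L 38 and 5339 and 2594 for crop-by-ripening in Muscat Superior. Beside the comparisons named with their levels, FPKM scaling moved the median of all genes by -0.26 for summer Victoria 36/35, -0.12 for winter Victoria 36/35, -0.14 for summer Muscat Superior 36/35, 0.14 for summer Muscat Superior 38/36, -0.10 for winter Muscat Superior 36/35, -0.10 for Muscat Superior against Victoria, 0.21 for cultivar-by-crop at E-L 35, 0.11 for cultivar-by-crop at E-L 36, 0.19 for crop-by-ripening in Victoria and -0.11 for crop-by-ripening in Muscat Superior. The share of higher calls by the test and on the log2(FPKM + 1) scale was 49.7% and 25.7% for summer Victoria 36/35, 49.0% and 36.2% for winter Victoria 36/35, 52.1% and 29.0% for summer Muscat Superior 36/35, 38.4% and 80.9% for summer Muscat Superior 38/36, 48.6% and 34.6% for winter Muscat Superior 36/35, 50.2% and 36.1% for Muscat Superior against Victoria, 47.1% and 74.6% for cultivar-by-crop at E-L 35, 49.4% and 65.0% for cultivar-by-crop at E-L 36, 46.5% and 60.1% for crop-by-ripening in Victoria and 48.8% and 35.6% for crop-by-ripening in Muscat Superior. The levels of EXPA11 in winter Victoria past E-L 35 rested on few reads, 2 to 26 in a library, which limits its folds there. Those of EXPA16 in winter berries at E-L 38 rested on 4 to 68 reads, which limits its folds at that stage. In winter Muscat Superior at E-L 36, EXPA11 had 841 to 1315 reads. EXPA1 and EXPA18 counts include reads divided with other loci. Crop cannot be told apart from season, date or batch.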
